A study of Mus musculus with 14 samples.

Results

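The Spi1 gene of the mouse encodes PU.1, an ETS-family transcription factor, and its locus was mapped here from the ChIP-seq peaks of 13 transcription factors. The locus was taken as the Spi1 gene interval of RefSeq on mm10 (GRCm38.p6), chr2:91082374-91115759, with 50 kb either side, and a peak belonged to it if its midpoint lay inside. By this rule 83 of 279955 peaks were members, and they merged into 23 of 121980 regions. The cells were Hoxb8-FL, a line of multipotent haematopoietic progenitors kept in culture with oestradiol, which holds the conditional Hoxb8 protein active, and FLT3, and labelled as similar to lymphoid-primed multipotent progenitors. All samples were this same line, without treatment. They differed in the antibody used, which was against Spi1, Erg, Fli1, Runx1, Cebpa, Cebpb, Gfi1, Gfi1b, Tal1, Lyl1, Lmo2, Meis1 or Gata2, plus a rabbit IgG library whose peaks were not used here. Each factor had 1 library, so no value below has a replicate check and no p-value was computed. RNA was not measured, so neither the identity of the cells nor the activity of the gene could be checked.

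PU.1 is needed for the myeloid and B lymphoid lineages, and its dose is known to steer progenitors between fates. In mice the gene depends on an upstream regulatory element (URE), through which PU.1 also acts on its own gene, and loss of that element lowers PU.1 and leads to leukaemia. Runx1 and C/EBP factors are known to bind the URE, and Gfi1 is known as a repressor of the gene.

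RefSeq promoter sequences (GRCm38.p6, 250 bases before to 50 after a start) were available for 3 starts in the locus, those of the neighbours Slc39a13 and Mybpc3 and of the long noncoding RNA Gm39874, which starts head to head with Slc39a13. Those of Slc39a13 and Mybpc3 are shown because the ETS factors and Runx1 met at the first and no factor had a peak at the second. Slc39a13 encodes a zinc transporter, and its window is chr2:91070266-91070565 on the minus strand. Mybpc3 encodes a myosin-binding protein of heart muscle, and its window is chr2:91117894-91118193 on the plus strand. Both are written 5′ to 3′, with the ETS core GGAA and its reverse complement TTCC in capitals.
Slc39a13: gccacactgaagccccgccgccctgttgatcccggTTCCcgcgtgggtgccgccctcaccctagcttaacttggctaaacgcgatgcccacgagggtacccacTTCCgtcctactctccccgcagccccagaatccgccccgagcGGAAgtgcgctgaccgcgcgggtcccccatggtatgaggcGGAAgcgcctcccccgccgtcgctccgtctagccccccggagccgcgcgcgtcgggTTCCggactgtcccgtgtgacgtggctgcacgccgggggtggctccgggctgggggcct
Mybpc3: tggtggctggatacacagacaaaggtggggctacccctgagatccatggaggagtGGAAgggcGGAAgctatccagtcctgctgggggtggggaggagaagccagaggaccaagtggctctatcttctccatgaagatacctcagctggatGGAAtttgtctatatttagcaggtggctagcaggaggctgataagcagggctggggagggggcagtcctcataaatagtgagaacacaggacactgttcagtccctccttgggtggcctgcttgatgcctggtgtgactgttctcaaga

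The Slc39a13 window held 5 matches to GGAA on either strand and the Mybpc3 window held 3, while the median over 32851 RefSeq promoters was 3 and 96.0% of them held at least 1. A count of 5 or more was found in 28.6% of promoters. None of the other motifs searched on both strands was in the Slc39a13 window. These were the PU.1-type site GAGGAA, an extended form of the ETS core, which 28.3% of promoters held, and the Runx site TGTGGT, which 16.8% held. The zinc finger motifs were AGATAA for the Gata family, in 11.2% of promoters, and AATCNNNGC for the Gfi repressors, in 10.3%. The E-box CAGNTG was in 51.4% of promoters, the C/EBP site TTNCNNAA in 40.7%, the Meis site TGACAG in 19.2% and the octamer ATGCAAAT in 1.74%. The Mybpc3 window held 2 E-box matches, a number reached by 18.2% of promoters, and no match to the rest. The Gm39874 window, which overlaps that of Slc39a13 on the other strand, held 2 GGAA matches and 2 E-box matches. The region over the Slc39a13 start, chr2:91070192-91070908, had peaks of Erg, Fli1, Lmo2, Runx1 and Spi1. The midpoints of Erg, Fli1, Lmo2 and Runx1 lay within 29 bp below to 11 bp above the Fli1 midpoint, and that of Spi1 lay 288 bp above it, so the Spi1 peak overlapped the window by its lower end.

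The 23 regions were spread over the whole locus, with 10 centred below the gene, 9 inside the gene interval and 4 above it. The interval held 41 peaks, against 28 below it and 14 above it. It is 33.4 kb long and each flank 50 kb, and how peaks divide in this way at other genes was not computed. Spi1 is transcribed towards higher coordinates, so regions below the gene lie on its upstream side. The gene table gives the outer boundary of all transcripts of a gene and no exons, so distances are from the lower boundary of Spi1, and whether a region is exonic, intronic or in an untranslated part was not determined. In number of factors, 11 regions held 1 factor, 8 held 2 to 5, none held 6 to 9, and 4 held 10 or more. Those 4 regions held 43 of the 83 peaks, or 51.8%, against 10.9% of the peaks of all lists that lay in such regions.

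**Figure D1:**
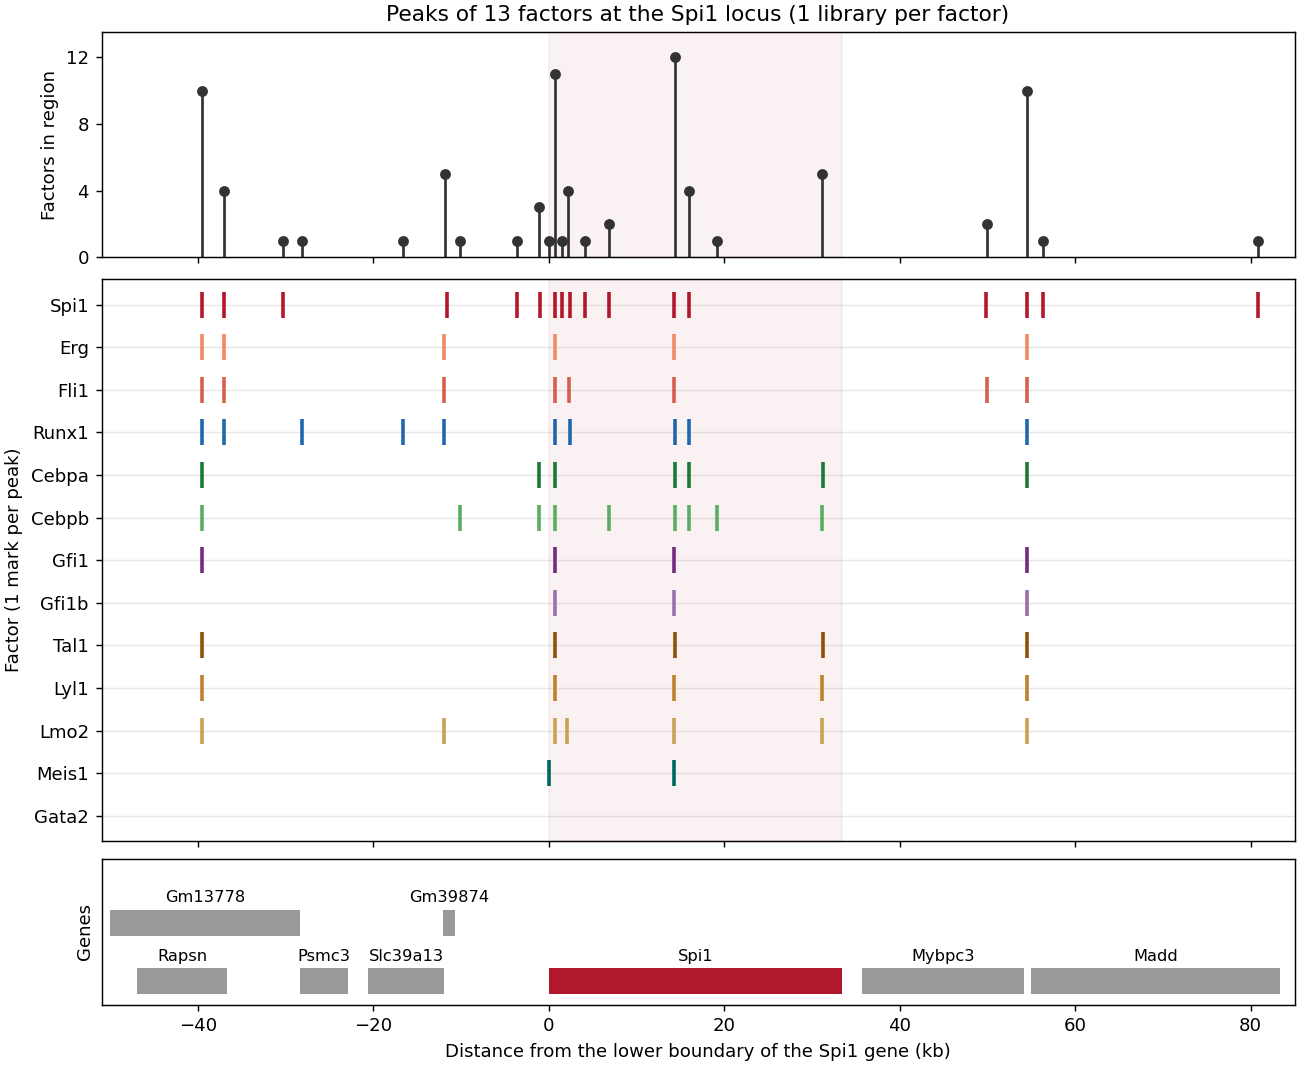
The top panel gives the number of factors in each of the 23 merged regions against its distance from the lower boundary of the Spi1 gene in kb, the middle panel has 1 mark per peak for each factor, and the bottom panel shows RefSeq genes cut off at the ends of the locus, with the Spi1 interval shaded above. Peaks of most factors line up at 4 places, 39.5 kb below the boundary and 0.687, 14.3 and 54.5 kb above it, and the Gata2 row is empty.

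All protein-coding genes on the autosomes and chromosome X, 21631 in number, served as background, each with its own 50 kb flanks. The Spi1 locus had 83 peaks, against a median of 21 over all loci (middle 50% from 7 to 40), and 3.50% of loci had as many. Its 12 factors stood against a median of 9, and 21.9% of loci had 12 or more. Its 4 regions with 10 or more factors stood against a median of 0. One such region or more was found in 17.4% of loci, but 4 or more in only 0.453% (98 loci), and none of the other 97 overlapped the Spi1 locus. A region with 11 or more factors was found in 10.3% of loci, 12 or more in 4.57% and all 13, which no Spi1 region reached, in 0.291%. With 100 kb either side the locus ranked 1823 by number of peaks, against 720 with 50 kb. When Spi1 peaks were left out, 2 regions held 10 or more of the remaining 12 factors. The 2 regions with exactly 10 factors both held Spi1, so they fell below the unchanged threshold by construction.

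Among the 23 regions, 17.4% held 10 or more factors (exact 95% binomial interval 4.95 to 38.8, counting error only), against 2.32% of all merged regions. Regions with 4 or more factors made up 39.1% of the locus (19.7 to 61.5), against 17.7% of all regions. The share with 1 factor was 47.8% (26.8 to 69.4), an interval that includes the 56.3% of all regions. Neighbouring regions of a gene are not independent, so these intervals are too narrow for a comparison of loci.

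The region with the earliest lines in the lists was chr2:91082828-91083294, centred 0.687 kb above the lower Spi1 boundary. It held 11 factors and lacked Gata2 and Meis1, a pair that was missing from 341 of the 931 regions with 11 factors (36.6%). The lists have no scores, and the meaning of the order of their lines is not stated. In all 13 lists, however, peaks in the first 10% of the lines overlapped a peak of another factor more often (55.8% to 100% of them) than those in the last 10% (20.5% to 98.9%). Here the line is given as a percentage of the list, so that a low value is an early line.

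At this region the Runx1 peak was line 6 of 11728 (0.0512%). Cebpa stood at line 93 of 35065 (0.265%), Cebpb at 135 of 37795 (0.357%) and Lmo2 at 106 of 26738 (0.396%). Fli1 stood at 126 of 22034 (0.572%) and Erg at 79 of 9014 (0.876%). All 6 were within the first 1% of their lists. The basic helix-loop-helix factors Tal1 and Lyl1 followed at 1.86% and 2.37%, and Spi1 itself at 2.36%, line 1803 of 76378. Only the repressors Gfi1 (26.0%) and Gfi1b (69.5%) came late.

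The median over the 11 factors was 0.876%, which ranked 9 among the 2831 regions with 10 or more factors in all lists, whose own median was 22.4% (middle 50% from 13.4 to 32.5). As many as 6 factors in the first 1% were found in 11 of the 2831 regions (0.389%), and the median region had 0. This comparison of line order was chosen after the values were seen. With only the first 10% of each list, 9 factors were left at this region and no other region of the locus had more than 3.

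**Figure D2:**
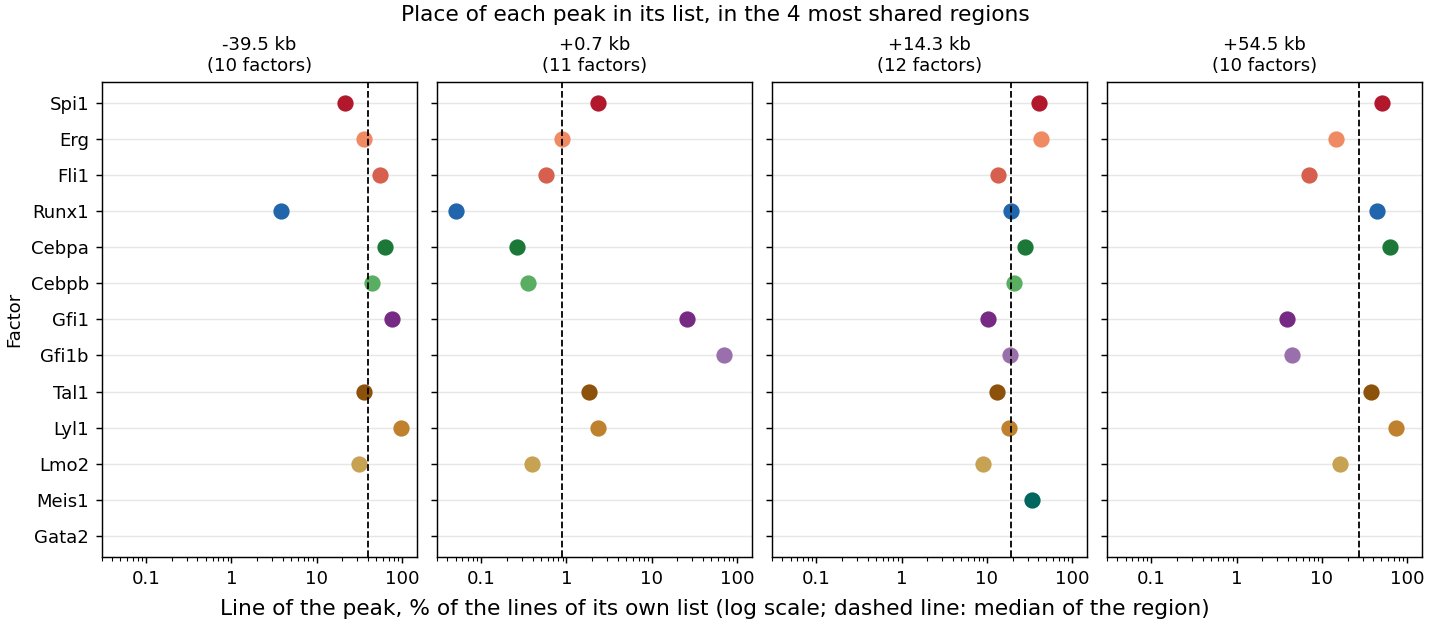
Each panel is 1 of the 4 regions with 10 or more factors at the Spi1 locus, named by its distance from the lower gene boundary, and each point is the line of the peak of 1 factor as a percentage of its list, on a log axis, with a dashed line at the median of the region. At 0.687 kb above the boundary 9 of 11 factors lie at 2.37% or earlier, while Gfi1 and Gfi1b lie far right; at 54.5 kb these repressors are the earliest.

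The region with the most factors was chr2:91096454-91096926, 14.3 kb above the lower boundary and inside the gene interval. It held 12 factors, all but Gata2, which was also missing from 515 of the 573 regions with 12 factors (89.9%). This was the only region of the locus where Meis1 met other factors. Its peaks stood at middling lines, with a median of 19.0%, rank 1153 of 2831. The earliest was Lmo2, a bridging protein that reaches DNA through Tal1 or Lyl1 and GATA factors, at 9.06%. Gfi1 (10.2%), Tal1 (13.01%), Fli1 (13.6%), Lyl1 (18.1%), Gfi1b (18.9%), Runx1 (19.2%), Cebpb (20.8%) and Cebpa (28.1%) followed. Meis1 stood at 33.9%, Spi1 at 40.9% and Erg at 43.6%. The 12 factors thus ran from 9.06% to 43.6% of their lists, while at 0.687 kb 9 of the 11 ran from 0.0512% to 2.37% and only Gfi1 and Gfi1b lay beyond.

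The centres of these 2 regions were 13.6 kb apart. The URE is described in the literature about 14 kb upstream of the promoter, with a further enhancer about 12 kb upstream. A region with Fli1, Lmo2, Runx1 and Spi1, chr2:91084214-91084935, lay 12.1 kb below the centre of the 12-factor region. That centre was taken from these same peaks, while the plan counted from the start of the gene. Counted from that centre, the point 14 kb below fell between the Meis1 region and the 11-factor region, 0.121 kb above the edge of the Meis1 region. The gap between the Meis1 region and the 11-factor region was 258 bp, so both came within 1 kb of that point. Counted from the lower boundary of the gene instead, no region came within 1 kb of a point 14 kb below, and the nearest, 1.82 kb away, was the one at the Slc39a13 start. The point 12 kb below lay within that same region. Which of these regions is the published element or the published promoter was not tested, since no start of a single Spi1 transcript and no sequence of the gene was used.

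The 9 regions inside the gene interval included several less shared ones between and beyond the shared regions. Spi1 was the only factor at chr2:91083720-91084119 and chr2:91086315-91086714, and it was joined by Cebpb at chr2:91089051-91089456. The gap to the region with Fli1, Lmo2 and Runx1 was 94 bp for the first of these. At chr2:91098158-91098584, 1.68 kb above the 12-factor region, Cebpa and Cebpb stood early in their lists, at 3.56% and 1.93%, while Runx1 (92.0%) and Spi1 (85.3%) stood late. Cebpb alone was found at chr2:91101381-91101780. Near the upper end of the gene, chr2:91113282-91113784 held Tal1, Lyl1, Lmo2, Cebpa and Cebpb. It was the only region of 4 or more factors in the locus without a Spi1 peak.

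Across the lower boundary of the gene, Meis1, a homeobox partner of Hox proteins, had a peak alone at chr2:91082170-91082569. The centre of this peak lay 0.0045 kb below the boundary, and its upper edge 258 bp short of the 11-factor region. The other Meis1 peak was in the 12-factor region, and 23.9% of loci had as many as 2 Meis1 peaks, with 1 or more in 50.6%. Cebpa, Cebpb and Spi1 shared chr2:91081020-91081534, 1.10 kb below the boundary. Their lines stood at 45.8% for Spi1, 72.9% for Cebpb and 81.4% for Cebpa. Spi1 alone was at chr2:91078491-91078890 and Cebpb alone at chr2:91072047-91072446.

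The other regions with 10 factors lay outside the gene, near its neighbours. One, chr2:91042612-91043075, was inside Rapsn, which encodes a scaffold of acetylcholine receptors at the nerve-muscle synapse, and 39.5 kb below the Spi1 boundary. It lacked Gata2, Gfi1b and Meis1. Runx1 stood at 3.86% of its list there, and all the others between 21.4% (Spi1) and 96.5% (Lyl1). The other, chr2:91136630-91137087, lay in the gap between Mybpc3 and Madd, 54.5 kb above the boundary. Madd encodes a regulator of Rab proteins and of death receptor signalling.

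That second region lacked Cebpb, Gata2 and Meis1, and its earliest peaks were those of the repressors. Gfi1 stood at line 374 of 9482 (3.94%) and Gfi1b at line 389 of 8675 (4.48%), followed by Fli1 (6.99%), Erg (14.6%) and Lmo2 (16.2%). Tal1 (38.0%), Runx1 (44.6%), Spi1 (51.1%), Cebpa (62.8%) and Lyl1 (74.9%) came later. The place of Gfi1 and Gfi1b was thus the reverse of that at 0.687 kb, where they were the last. The medians of the regions at 39.5 kb below and 54.5 kb above were 40.2% and 27.1%, ranks 2490 and 1768 of 2831.

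Of the remaining regions near neighbours, Erg, Fli1, Runx1 and Spi1 shared chr2:91045110-91045591, inside Rapsn close to its upper end. Runx1 was alone at chr2:91053991-91054390, over the lower boundary of Psmc3, an ATPase subunit of the proteasome, and at chr2:91065488-91065887 inside Slc39a13. Spi1 was alone at chr2:91051896-91052295 and, within Madd, at chr2:91138540-91138939 and chr2:91162949-91163348, and Fli1 joined it at chr2:91132055-91132524 within Mybpc3. Which gene any of these regions acts on was not measured.

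By factor, the ETS group was led by Spi1, with 17 peaks at its own locus, against a median of 6 over all loci. One or more was found in 84.7% of loci and as many as 17 in 7.69%. It was present in 8 of the 9 regions with 4 or more factors (88.9%, interval 51.8 to 99.7), against 80.4% of all such regions, and was the single factor in 6 of 23 regions (26.1%, 10.2 to 48.4), against 36.6%. Fli1 had 8 peaks, as many as 5.39% of loci (69.7% had any), and all 8 shared a region with Spi1. Erg had 6 peaks, as many as 1.39% of loci (51.7% had any), and each of the 6 was in a region with Fli1, Runx1 and Spi1. In the whole lists, 99.5% of Erg peaks and 96.4% of Fli1 peaks shared a region with some other factor. The shares with a named partner over the whole lists were not computed, here or for the factors below.

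Runx1, a Runt-domain factor of blood stem cells, had the smallest share of loci with as many peaks. It had 10 peaks in 10 regions, against a median of 1 over all loci. Only 0.185% of loci (40 genes) had as many, the other 39 of which did not overlap the Spi1 locus, while 56.8% had 1 or more. Of its 10 regions 8 also held Spi1 and 7 held Fli1. Runx1 shared a region with some other factor at 94.8% of all its peaks. Its lines ran from 0.0512% to 92.0% of the list, and 3 of the 10 peaks were in the first 10%, at the 11-factor region, inside Rapsn and at the Slc39a13 start. The rank of 22 among all loci depended on the window and on the lines used. It was 215 with 10 kb either side (4 peaks), 152 with 100 kb (11 peaks), 79 with the first 50% of lines (5 peaks), 9 with the first 10% of lines (3 peaks) and 55 per unit of locus length.

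The C/EBP factors, which drive granulocyte and monocyte genes, met in 6 regions. Cebpb had 9 peaks, as many as 9.16% of loci (75.5% had any), and Cebpa had 7, as many as 14.7% (74.3% had any). The region without Cebpb was that between Mybpc3 and Madd, and Cebpb stood without Cebpa in 3 regions. Spi1 was present in 6 of the 9 Cebpb regions and in 6 of the 7 Cebpa regions. In the whole lists, 87.8% of Cebpb peaks and 90.6% of Cebpa peaks shared a region with some other factor.

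The peaks of the zinc finger repressors all lay in regions with 10 or more factors, where 25.2% of all Gfi1 peaks and 21.9% of all Gfi1b peaks lay. Gfi1 had 4 peaks, 1 in each region with 10 or more factors, and 5.47% of loci had as many (49.1% had any). Gfi1b had 3, missing from the Rapsn region, and 9.58% of loci had as many (46.5% had any). With 4 and 3 peaks, a difference from these shares was not tested.

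Tal1 and Lyl1 had 5 peaks each and shared all 5 regions, which were the 4 most shared ones and the one at the upper end of the gene. As many Tal1 peaks were found in 7.59% of loci (56.8% had any) and as many Lyl1 peaks in 2.62% (40.5% had any). Lmo2 was in each of these 5 regions and in 2 more without Tal1 or Lyl1, at the Slc39a13 start and 12.1 kb below the 12-factor region. It had 7 peaks, as many as 11.1% of loci, and 69.0% had any. In the whole lists, 82.1% of Tal1, 99.7% of Lyl1 and 92.1% of Lmo2 peaks shared a region with some other factor.

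Gata2 had no peak in the locus. In this it did not stand apart from most genes, since only 23.2% of loci held a Gata2 peak, and its list was the shortest, at 3217 lines. All 12 other factors with no Gata2 were found at 12.1% of loci. The nearest Gata2 peaks lay 60.5 kb below the gene, at chr2:91021711-91022110, and 110 kb above it, at chr2:91225693-91226092. The first was brought in with 100 kb either side, which gave 13 factors.

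**Figure D3:**
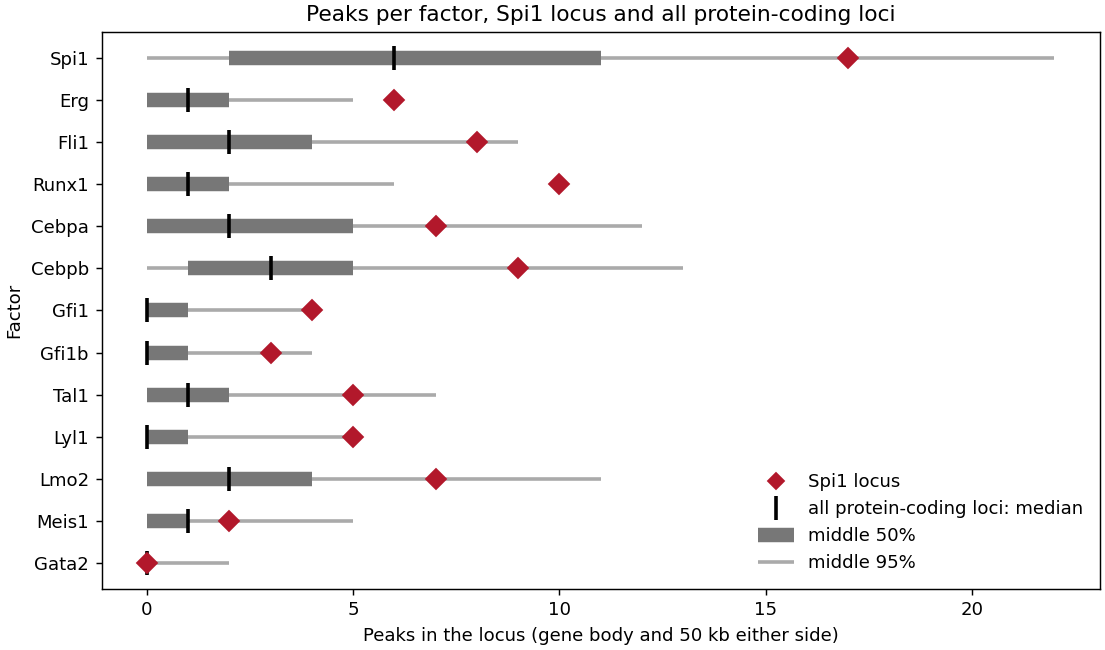
For each factor the diamond gives the number of peaks in the Spi1 locus, and the black tick, the thick bar and the thin line give the median, the middle 50% and the middle 95% over 21631 protein-coding loci. Runx1 (10 peaks) and Erg (6) lie beyond the middle 95% of loci, the other factors lie within it, and Gata2 is at 0.

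In each of the 4 most shared regions the midpoints of all peaks fell within a short stretch. They spanned 67 bp for 11 factors at 0.687 kb and 73 bp for 12 factors at 14.3 kb. The span was 64 bp in Rapsn and 58 bp between Mybpc3 and Madd. Over all 2831 regions with 10 or more factors the median span was 142 bp (middle 50% from 99 to 221), and a span as short as these was found in 6.18%, 9.25%, 5.05% and 3.25% of them. The SD of the midpoints was 18.5 bp and 20.4 bp in the regions at 0.687 and 14.3 kb.

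The order of the midpoints along the chromosome was not the same in the regions. Of the 11 factors found at both 0.687 and 14.3 kb, 10 lay on opposite sides of the median midpoint in them, and Gfi1 lay at the median in the first. Tal1, Gfi1b, Runx1, Cebpa and Cebpb lay on the same side as each other in both regions. Spi1, Erg, Fli1, Lyl1 and Lmo2 lay together on the opposite side, so in these regions the groups were kept while the sides swapped. At 14.3 kb, Spi1, Fli1, Lyl1 and Lmo2 were only 3.5 to 5.5 bp from the median, and Gfi1b 3.5 bp. The groups were not kept in the other most shared regions. In Rapsn, Tal1 lay on the side of Erg, Fli1, Lyl1 and Lmo2, and Spi1 on that of Runx1, Cebpa and Cebpb. Both were 1 bp from the median there. Between Mybpc3 and Madd, Spi1 and Lmo2 lay with Tal1, Gfi1b and Runx1, and Cebpa with Erg, Fli1 and Lyl1. At 0.687 kb Tal1 lay lowest, 25 bp below the median midpoint, and Spi1 highest, 42 bp above it, with Runx1, Cebpa and Cebpb 7, 8 and 9 bp below. At 14.3 kb Tal1 lay highest, 56.5 bp above the median, Erg lowest at 16.5 bp below, and Runx1, Cebpb and Cebpa 24.5, 22.5 and 27.5 bp above. Lyl1, the relative of Tal1, lay 1 and 2 bp from Lmo2 in these regions, and 38 and 60 bp from Tal1. In Rapsn it lay 20 bp from Lmo2 and 32 bp from Tal1, and between Mybpc3 and Madd 12 and 16 bp, so its midpoint was near that of Lmo2 in some of the 4 regions only. Midpoints come from the authors' fixed-width peaks of 1 library each, and their precision is unknown.

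**Figure D4:**
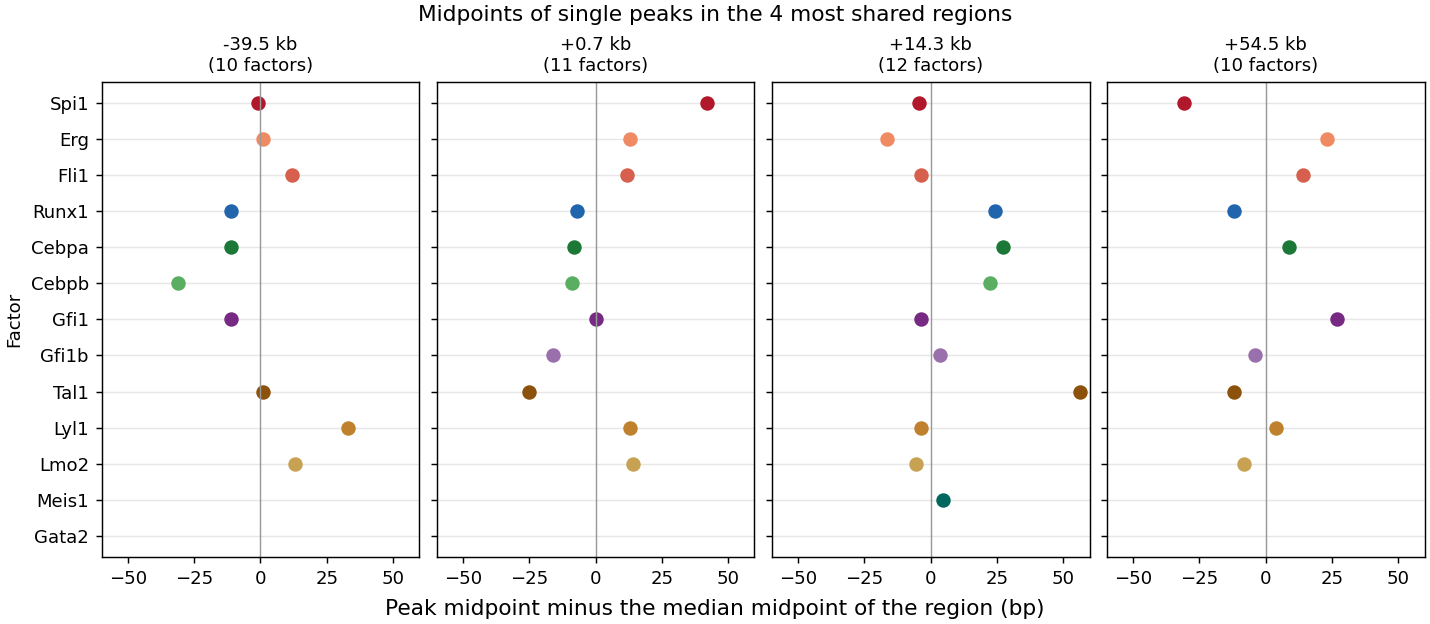
Each panel is 1 of the 4 most shared regions, and each point is the midpoint of the peak of 1 factor relative to the median midpoint of that region, in bp. All points lie within 56.5 bp of the median, and 10 of the 11 factors present in both the region at 0.687 kb and that at 14.3 kb lie on opposite sides of the median in them.

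Among the genes of the 13 factors themselves, the Spi1 locus ranked 6 by number of peaks, within a range from 46 at Tal1 to 217 at Runx1. It ranked 3 by regions with 10 or more factors, with 4, after Runx1 with 7 and Gfi1b with 5. Per 10 kb of locus it had 6.22 peaks and ranked 8, the highest being Lyl1 with 10.3 and the lowest Tal1 with 3.99. The 17 Spi1 peaks at Spi1 were fewer than those at Runx1 (40), Fli1 (37), Erg (36), Cebpa (23) and Lyl1 (22), and equal to those at Lmo2, but these loci differ in length. Per 10 kb the Spi1 locus had 1.27 Spi1 peaks and ranked 6 of 13, above Runx1 (1.23) and Erg (1.10) and below Cebpa (2.24), Lyl1 (2.13), Fli1 (1.67), Cebpb (1.58) and Lmo2 (1.37). The share of all loci with as many peaks of the same factor was 7.69% for Spi1 at Spi1. By this share Spi1 ranked 9 among the 13 genes, from the smallest up. It was smallest for Runx1 at Runx1 (0.00925%), Fli1 (0.116%) and Meis1 (0.139%), and larger than at Spi1 for Cebpb (9.16%), Lmo2 (11.1%), Tal1 (12.7%) and Cebpa (14.7%). Locus length was not allowed for in this share. The locus was 325 kb long at Runx1, 221 kb at Fli1 and 239 kb at Meis1, against 133 kb at Spi1. Lyl1, Gfi1, Gfi1b and Gata2 also had smaller shares than Spi1, at loci shorter than that of Spi1.

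The loci whose peak counts over the 13 factors were most like those of Spi1, by Bray-Curtis similarity, were Tle5 (0.930), Glb1l (0.925), Eif4h (0.924), Stk16 (0.924) and Tuba4a (0.924). The median over the 21620 loci that share no ground with the Spi1 locus was 0.404, and 2.5% of them exceeded 0.844. Tle5, of the Groucho corepressor family, had 89 peaks of 12 factors with 9 of Runx1 and 16 of Spi1, but a single region with 10 or more factors, against 4 at Spi1. Glb1l, Stk16 and Tuba4a are neighbours on chromosome 1 and share most of a locus. Eif4h, a translation initiation factor, had 75 peaks and no region with 10 or more factors.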

How the data were processed

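ChIP-seq was done on Hoxb8-FL cells fixed in formaldehyde at 0.4% or 1% for 10 min and sonicated for 7 min (30 s on, 30 s off), per the labels' protocols; the concentration for each sample is not stated there. The submitters' processing notes name Bowtie2, bedtools and MACS2 and the builds mm10 and GRCm38. The version, role and threshold of each tool, and whether the IgG library served in calling, were not stated in them. The authors deposited 1 list per factor, with chromosome, start and end only. Every peak is 400 bp wide. Read depth is unknown, and list lengths (3217 to 76378 lines) were not compared as amounts of binding.

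Of 279958 lines, 3 outside the 19 autosomes and chromosome X were left out. Peaks that touched or overlapped by 1 bp were merged. Genes came from RefSeq (GRCm38.p6). The lower gene boundary, which is the outer boundary of all transcripts, stood in for the start of Spi1. Where single transcripts start was not determined. Shares have exact (Clopper-Pearson) 95% intervals. Counting was tested on simulated peaks (Python 3.11.15, NumPy 2.4.6, SciPy 1.17.1, matplotlib 3.10.9). Alternatives changed the flanks, merging, lines and lists used.

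The named genes were Spi1, genes within 50 kb, the other 12 factor genes, Spib, Spic and the 5 loci most similar in peak counts. Every region was to be accounted for, and regions with 6 or more factors described singly. The members and lists were chosen with earlier results of these data known.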

Additional observations from a re-analysis of the deposited data

How the results depend on the processing

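With 10 kb either side of Spi1, 46 peaks in 12 regions were left, 2 of which held 10 or more factors, and 30 was the rank of the locus by factors in its most shared region. With 100 kb the ranks were 1823 by peaks and 104 by most shared region, against 720 and 64. Ranks by most shared region count only the loci with more factors. The rank of 64 was tied with 924 other loci, which also had 12 factors in their most shared region. Ties at the other settings were not listed. The first 50% of lines left 54 peaks in 15 regions, with 2 of 10 or more factors and ranks of 434 and 9. The first 10% of lines, chosen after seeing the data, left 19 peaks in 7 regions, of which 0 held 10 or more factors, with ranks of 146 and 8. Leaving out the Spi1 peaks left 2 regions with 10 or more factors, at an unchanged threshold. The cause of these shifts in rank was not tested; fewer lines or a narrower window leave fewer peaks by construction. Merging over gaps of up to 100 bp gave 22 regions and grouping by midpoints within 200 bp gave 25, each with 4 regions of 10 or more factors. In all, 31 of 53 alternative values stayed within 1.5 times the value reported. These included a spacing between regions (13.6 kb), set against a distance from the gene boundary (14.3 kb), which is a different quantity. The tally also mixes ranks with counts of factors, which have a fixed upper limit, so it is a description only. The other planned source for the start of the gene gave no value. No paired analysis was possible because each factor has 1 library. With no scores or read counts, depth limits what the absence of a peak can show.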

Other observations

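The loci of the ETS factors closest to PU.1 were less densely covered. Spib, which encodes Spi-B of B cells and plasmacytoid dendritic cells, had 33 peaks of 10 factors, 12 of them Spi1, and at most 8 factors in a region. Spic, which encodes Spi-C of red pulp macrophages, had 23 peaks of 8 factors, 5 of them Spi1, and at most 6 factors in a region. The Spi1 locus had 83 peaks, 17 of them Spi1, and at most 12 factors in a region. Among the genes next to Spi1, whose loci share much of its ground, Mybpc3 had 72 peaks, Slc39a13 70, Psmc3 66, Madd 54 and Rapsn 50. Runx1 peaks numbered 9 in the Slc39a13 and Psmc3 loci, 7 in those of Rapsn and Mybpc3 and 4 in that of Madd, against 10 at Spi1.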
